A study of Mus musculus with 6 samples.

Results

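The miR-181 locus of mouse chromosome 1 and 4 phosphatase genes known as its targets were followed in fetal thymocytes: the microRNA genes Mir181a-1 and Mir181b-1, and the phosphatase genes Ptpn22, Ptpn11, Dusp5 and Dusp6. These 6 genes, of 19937 named on the array, were taken by gene symbol from probe sets that carry a single symbol. Each has 1 such probe set. They were chosen with their values in all 3 groups known, so their levels are given as a description, with no test. The cells were Thy1.2+ thymocytes purified with magnets from Rag1-/- mouse E17.5 fetal thymi (the embryonic day), and every group carries the Rag1 deletion. There were 3 groups of 2 arrays. The fresh group (0 h) was purified straight from the thymus. The DMSO group came from 40 h of stimulation with antibody to CD3 plus the vehicle DMSO. The 79-6 group came from 40 h with the same antibody plus 50 µM 79-6, a small molecule that binds the BTB domain of the repressor Bcl6. No group was kept for 40 h without the antibody. From fresh to DMSO, time in culture, antibody and vehicle therefore changed together and cannot be told apart. The comparison of 79-6 with fresh cells adds the compound to these. Organ culture of the thymi is named in the series' design text. The labels do not say whether the 2 arrays of a group come from separate litters or cultures, so each p-value speaks for the spread among these arrays alone.

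A microRNA is cut from a hairpin in a longer primary transcript, loaded into an Argonaute protein, and lowers target messages and their translation through pairing of its seed, bases 2 to 8, mostly with sites in their 3′ ends. In the thymus miR-181a is known as an abundant microRNA of the double-positive stage that raises the sensitivity of T cell receptor signalling. It is known to do so by lowering several phosphatases at once. Ptpn22 removes activating phosphates from Lck and Zap70, Ptpn11 (Shp2) is a phosphatase with SH2 domains that acts in signalling complexes, and Dusp5 and Dusp6 remove the activating phosphates of the kinase ERK. Thymocytes without Rag1 rearrange no T cell receptor genes and stop at the double-negative 3 stage, and antibody to CD3 stands in for the missing pre-T cell receptor signal.

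The hairpins read by the array's locus probe sets are shown first, because the array signal comes from the precursor or its host transcript and not from the mature microRNA. Both lie on the plus strand of chromosome 1 (RefSeq, GRCm38.p6), 97 bases apart, Mir181a-1 at chr1:137966455-137966541 and Mir181b-1 at chr1:137966639-137966718. Capitals mark the arm that gives the mature 5p microRNA.
Mir181a-1 hairpin: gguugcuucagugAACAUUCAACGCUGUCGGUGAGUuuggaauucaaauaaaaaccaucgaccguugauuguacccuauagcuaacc
Mir181b-1 hairpin: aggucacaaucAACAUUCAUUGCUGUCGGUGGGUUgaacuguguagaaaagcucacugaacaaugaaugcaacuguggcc

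All 6 genes of the family give 5p microRNAs with 1 seed, ACAUUCA, which 4 of 1679 mature mouse microRNA names in the RefSeq table carry. Capitals mark the seed.
miR-181a-5p: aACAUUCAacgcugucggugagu
miR-181b-5p: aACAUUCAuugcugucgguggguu
miR-181c-5p: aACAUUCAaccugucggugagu
miR-181d-5p: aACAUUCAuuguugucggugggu
Counted from the 5′ end, miR-181b-5p differs from miR-181a-5p over 23 bases by A9U, C10U and A21G, all outside the seed. miR-181d-5p differs from miR-181b-5p by C12U alone. The same miR-181a-5p is also cut from Mir181a-2 (chr2:38852735-38852810) and the same miR-181b-5p from Mir181b-2 (chr2:38853830-38853918), so mature microRNA from the loci on chromosomes 1 and 2 could not be told apart by sequence, whereas the hairpins differ. Mir181d lies at chr8:84178716-84178787 with Mir181c beside it. The 3p arms from the chromosome 1 hairpins have other seeds.
miR-181a-1-3p: aCCAUCGAccguugauuguacc
miR-181b-1-3p: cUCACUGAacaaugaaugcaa

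Values are log2 of the deposited RMA intensity (RMA is a method that corrects background, normalises between arrays and summarises probes). Across genes the arrays of a group correlated at 0.997 to 0.998, and the median intensity per array lay between 99.3 and 104, on the linear scale. Arrays give no counts, so their number limits the precision. T-lineage markers had a summed intensity of 50006 to 54958 over 11 markers. Each of the 11 was nevertheless called from fresh to DMSO, 6 higher and 5 lower (100%, against 19.6% of all genes). Rag1 signal lay between 10.82 and 11.51. Whether its probes fall inside the deleted stretch could not be seen from the files, so this does not check the genotype.

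Both microRNA loci on chromosome 1 were highest in DMSO, intermediate in fresh cells and lowest with 79-6. Mir181a-1 read 5.79 and 5.90 on the fresh arrays, 6.38 and 6.33 on the DMSO arrays, and 5.38 and 5.31 on the 79-6 arrays. No array of a group overlapped with those of another group. The means were 5.84 ± 0.08 (SD, n = 2) fresh, 6.35 ± 0.04 with DMSO and 5.34 ± 0.05 with 79-6. That is 1.42-fold higher in DMSO than in fresh cells, 2.02-fold lower with 79-6 than with DMSO, and 1.42-fold lower with 79-6 than in fresh cells. Markers of thymocyte stage moved as well. From fresh to DMSO Cd8a rose by 4.36 (adjusted p = 4.6e-07) and Cd4 by 3.23 (adjusted p = 6.8e-06), markers of the double-positive stage, while Ptcra, the pre-T cell receptor chain, fell by 1.86 (adjusted p = 1.7e-05) and Il2ra by 1.94 (adjusted p = 1.4e-05, all by limma). With 79-6 against fresh cells these differences were 4.48, 2.75, -1.81 and -1.37, whereas both hairpins were below fresh. The part of the stage in the hairpin signals was not tested. The Mir181a-1 signal is dim. Only 36.2% of all probe sets had a lower mean, and it was the member that a minimum mean of 6 left out.

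Mir181b-1, a brighter probe set (69.8% of probe sets had a lower mean), read 8.32 and 8.56 fresh, 8.86 and 8.71 with DMSO, and 7.97 and 7.74 with 79-6. The groups stood in the same order as for Mir181a-1, again with no overlap. Means were 8.44 ± 0.17 (SD, n = 2), 8.79 ± 0.11 and 7.86 ± 0.16. The signal was 1.27-fold higher in DMSO than fresh (a log2 difference of 0.35, or 0.22 without fresh replicate 1), 1.91-fold lower with 79-6 than with DMSO, and 1.50-fold lower with 79-6 than fresh. The log2 difference between the 2 hairpins' signals stayed between 2.38 and 2.66 over the 6 arrays.

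**Figure D1:**
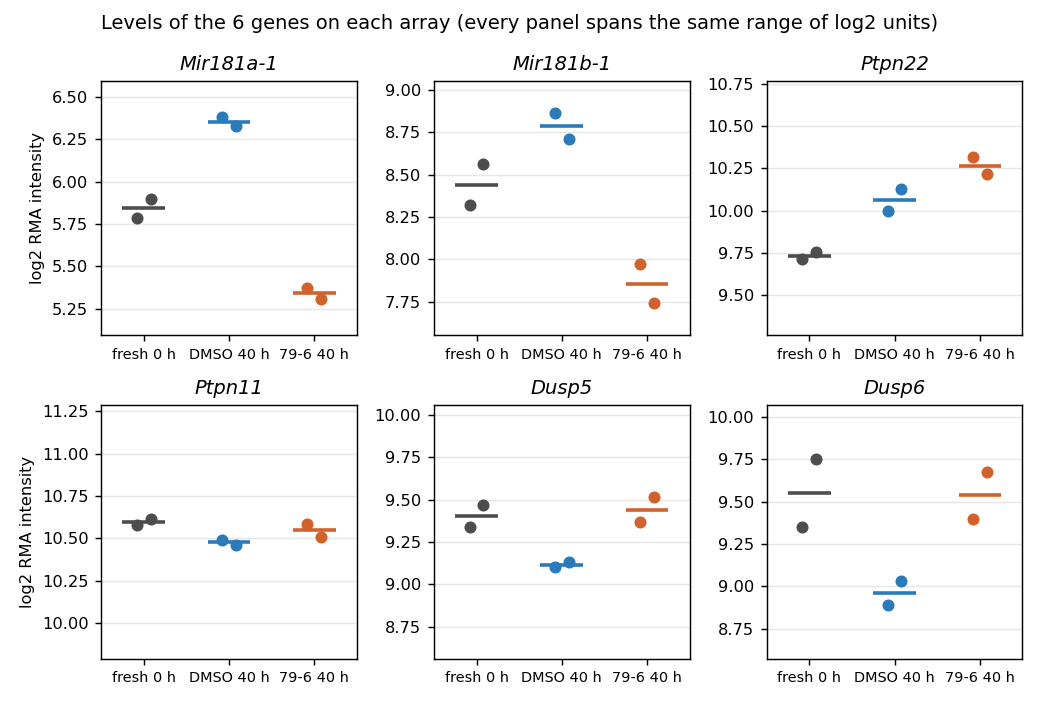
Log2 RMA intensity (vertical axis) of the 6 genes on each array (points) in fresh, DMSO and 79-6 groups, with the mean of each group's 2 arrays as a line; every panel spans the same range of log2 units. Both microRNA loci are highest in DMSO and lowest with 79-6, Dusp5 and Dusp6 are lowest in DMSO, Ptpn22 is lowest in fresh cells, and Ptpn11 spans 0.12.

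The other 4 loci of the family were not used to choose the genes. Mir181a-2 had the same order of group means. Its fresh and DMSO arrays overlapped, and both its 79-6 arrays lay below them. The other 3 had other orders. Mir181b-2 on chromosome 2 read 7.32 and 7.38 fresh, 6.62 and 6.65 with DMSO, and 6.54 and 6.33 with 79-6. It fell from fresh to DMSO by 0.72 ± 0.09 (SE, adjusted p = 0.0014 by limma) and was lower with 79-6 than fresh by a log2 difference of -0.92 ± 0.09 (adjusted p = 3.9e-04). Both calls held in 6 of 6 fits with 1 array omitted. Its 79-6 minus DMSO difference was -0.20 ± 0.09 and not called (adjusted p = 0.258).

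Mir181a-2, on the same chromosome 2 cluster, read 6.22 and 6.23 fresh, 6.45 and 6.19 with DMSO, and 6.04 and 6.07 with 79-6. None of its differences was called by limma (0.10, adjusted p = 0.567; -0.26, adjusted p = 0.185; -0.16, adjusted p = 0.261, in the order DMSO minus fresh, 79-6 minus DMSO, 79-6 minus fresh). On chromosome 8, Mir181c read 7.29 and 7.12 fresh, 7.35 and 7.26 with DMSO, and 7.33 and 7.51 with 79-6, with no call. Its 3 differences were 0.10, 0.12 and 0.22 (adjusted p = 0.556, 0.551 and 0.146 by limma). Mir181d read 7.92 and 8.06 fresh, 8.14 and 8.07 with DMSO, and 8.20 and 8.49 with 79-6. It was higher with 79-6 than fresh by 0.35 ± 0.11 (SE, adjusted p = 0.0480 by limma), a call that held in 1 of the 6 fits that left out an array and was lost without either fresh array, either DMSO array or 79-6 replicate 2. So, of these 4 loci, 1 was called lower from fresh to DMSO, and between 79-6 and DMSO 0 were called (limma; 1 at an unadjusted p under 0.05). Over all genes 19.6% were called from fresh to DMSO (8.89% higher, 10.7% lower), 4.36% between 79-6 and DMSO (2.38% higher, 1.98% lower) and 26.0% between 79-6 and fresh cells (12.0% higher, 13.9% lower). How far the probes of a hairpin also read the related hairpin is not known here.

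**Figure D2:**
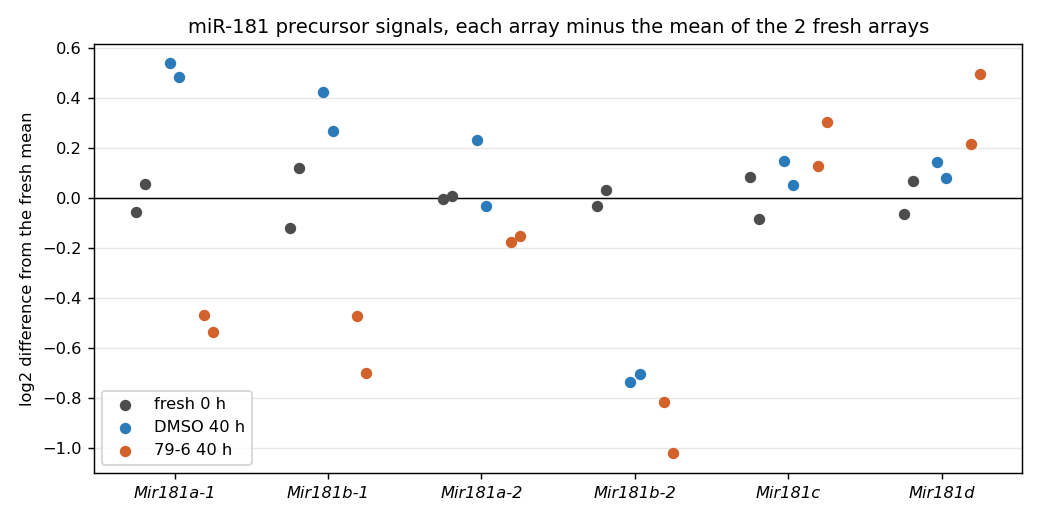
Log2 difference of each array (points) from the mean of the 2 fresh arrays for the 6 miR-181 loci, coloured by group. The 79-6 arrays lie below the fresh ones for Mir181a-1, Mir181b-1, Mir181a-2 and Mir181b-2. For Mir181b-2 the DMSO arrays lie low as well. The mean of Mir181d is 0.35 higher with 79-6 than in fresh cells.

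Likeness of pattern was measured as the Euclidean distance, over the 6 arrays, between log2 values centred on each gene's own mean. Of 13443 genes with a mean of at least 6, the nearest to Mir181a-1 was Mir181b-1, at a distance of 0.23. Alms1, a gene of the centrosome and cilium, followed at 0.26, then Dgke, which encodes a diacylglycerol kinase, at 0.29, and Fam221a at 0.31. Alms1 read 9.33 and 9.24 fresh, 9.63 and 9.59 with DMSO, and 8.85 and 8.71 with 79-6. These distances share the same 6 arrays and are a description.

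**Figure D3:**
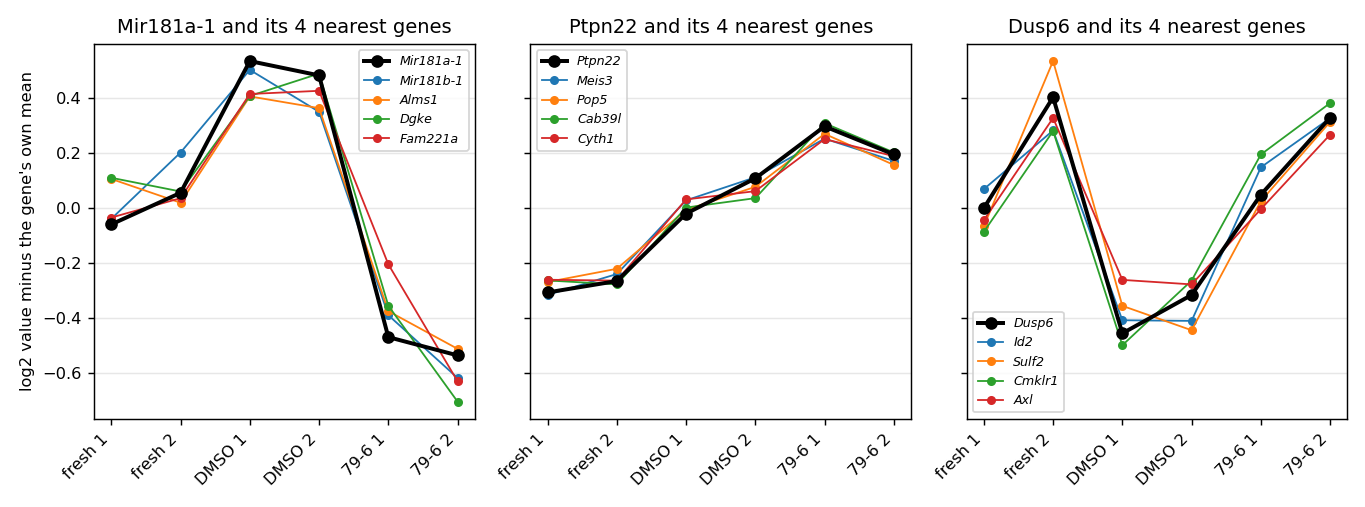
Log2 value minus the gene's own mean (vertical axis) on each of the 6 arrays for Mir181a-1, Ptpn22 and Dusp6 (black) and the 4 genes with the smallest distance to each (colours); lines only join the arrays of a gene. Mir181b-1 is the nearest gene to Mir181a-1, and Id2 the nearest to Dusp6.

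Of 33 other microRNA loci known from lymphocytes, 9.09% were called from fresh to DMSO, 3.03% from DMSO to 79-6 and 21.2% between 79-6 and fresh, against 19.6%, 4.36% and 26.0% of all genes. From fresh to DMSO 2 were called higher, Mir15b (1.08, adjusted p = 0.0122) and Mir16-2 (0.39, adjusted p = 0.0312), and 1 lower, Mir18 of the miR-17 cluster (-0.75, adjusted p = 0.0061, all by limma). These signals are dim, with means of 5.52, 4.80 and 5.56 in that order, so a minimum mean of 6 leaves all of them out. The call of Mir15b was lost without either DMSO array, and that of Mir16-2 also without fresh replicate 2. With 79-6 against DMSO the single call was Mir93 (-0.49, adjusted p = 0.0312 by limma), lost without either DMSO or either 79-6 array. Against fresh cells 2 were higher and 5 lower with 79-6, among them Mir15b (0.98), Mir18 (-0.68), the miR-17 host gene Mir17hg (-0.61) and Mir106b (-0.59). Without fresh replicate 1 or 79-6 replicate 1 Mir15b was not called, nor was Mir106b without fresh replicate 2 or 79-6 replicate 2. The median of the 33 was -0.04 from fresh to DMSO and -0.03 from DMSO to 79-6, against 0.02 and 0.02 over all genes.

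Among genes that make or use microRNAs, the Argonaute gene Ago2 rose from fresh to DMSO by 0.78 ± 0.08 (SE, adjusted p = 5.3e-04 by limma), and Lin28b, a repressor of let-7 processing, fell by 0.49 (adjusted p = 0.0029). Of 17 measured genes 2 were higher and 3 lower in that comparison (29.4%, against 19.6% of all genes). The others were Tut4 (0.35), Ago1 (-0.42) and Drosha. Tut4 and Drosha lost that call without either fresh or either DMSO array, and Ago1 without fresh replicate 1 or DMSO replicate 1. Drosha, the nuclease that frees the hairpin from the primary transcript, read 10.24 and 10.12 fresh, 9.86 and 9.89 with DMSO, and 9.55 and 9.49 with 79-6. It was lower with 79-6 than fresh by a log2 difference of -0.66 ± 0.07 (adjusted p = 8.4e-04 by limma). Its step from DMSO to 79-6 (-0.35, adjusted p = 0.0489 by limma) was the only call of the 17 there and was lost in each fit that left out 1 array. That 1 call is 5.88% of the 17, against 4.36% of all genes. Between 79-6 and fresh cells 2 of the 17 were higher and 6 lower (47.1%, against 26.0%). The median of the 17 was -0.05, -0.11 and -0.17 in the 3 comparisons (0.02, 0.02 and 0.05 over all genes).

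Ptpn22, the phosphatase that acts on Lck and Zap70, was lowest in fresh cells and highest with 79-6. It read 9.71 and 9.75 fresh, 9.9997 and 10.13 with DMSO, and 10.32 and 10.22 with 79-6, with no overlap between any groups. Means were 9.73 ± 0.03 (SD, n = 2), 10.06 ± 0.09 and 10.27 ± 0.07. It was 1.26-fold higher in DMSO than fresh, 1.15-fold higher with 79-6 than with DMSO and 1.45-fold higher with 79-6 than fresh. From DMSO to 79-6 its signal was thus higher while that of both chromosome 1 hairpins was lower, and from fresh to DMSO all 3 were higher. The DMSO arrays enter both of these comparisons.

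Ptpn11, the SH2-domain phosphatase, varied least. It read 10.58 and 10.62 fresh, 10.49 and 10.46 with DMSO, and 10.58 and 10.51 with 79-6. The group means (10.60 ± 0.02, 10.48 ± 0.02 and 10.55 ± 0.05, SD, n = 2) spanned 0.12 log2 units, against 1.01 for Mir181a-1. DMSO was lowest, 1.09-fold below fresh, and the 79-6 arrays overlapped with the fresh ones.

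Among 18 other cytoplasmic tyrosine phosphatase genes, 1 rose and 3 fell from fresh to DMSO (22.2%, against 19.6% of all genes). Ptpn13 stood lowest, at a log2 difference of -1.38 ± 0.07 (SE, adjusted p = 2.9e-05 by limma), from 9.12 and 9.07 to 7.74 and 7.69. Ptpn14 fell by 0.82 (adjusted p = 0.0021) and Ubash3a, a suppressor of T cell receptor signals, by 0.41 (adjusted p = 0.0061), and these 3 calls held without any single array. Ptpn1 rose by 0.40 (adjusted p = 0.0072), and its call was lost when fresh replicate 1 was omitted. Ptpn6 (Shp1) was the single call between 79-6 and DMSO (5.56%, against 4.36% of all genes). It is the close relative of Ptpn11 and an inhibitor of T cell receptor signals. It read 10.27 and 10.37 fresh, 10.56 and 10.60 with DMSO, and 11.01 and 11.15 with 79-6. Its rise of 0.50 ± 0.08 (adjusted p = 0.0218 by limma) was lost without either DMSO array or 79-6 replicate 2. Against fresh cells it was higher by 0.76 (adjusted p = 6.2e-04 by limma) in every such fit. With 79-6 against fresh cells 3 of the 18 were higher and 8 lower (61.1%, against 26.0% of all genes). Ptpn13 at -1.60 and Ptpn14 at -1.22 were lowest, and Ubash3b stood at 0.68. The lower members that held without any single array numbered 3.

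Genes listed as receptor tyrosine phosphatases were called in 7 of 21 cases from fresh to DMSO, 3 higher and 4 lower (33.3%, against 19.6% of all genes). Ptprc, which encodes CD45, the phosphatase that keeps Lck ready for activation, rose by 0.45 (adjusted p = 0.0059). Ptprcap, counted among the 21, encodes a protein associated with CD45 and not a phosphatase, and was not called in any comparison. Ptpro rose by 0.61 (adjusted p = 0.0059), while Ptprk (-0.998, adjusted p = 4.6e-04), Ptprf (-0.88, adjusted p = 3.4e-04) and Ptprv (-0.49, adjusted p = 0.0045) fell, all by limma. Limma called 0 of the 21 between 79-6 and DMSO (5 at an unadjusted p under 0.05), against 4.36% of all genes. There Ptprs (-0.35, adjusted p = 0.0612) and Ptprf (-0.27, adjusted p = 0.100) had the smallest p by limma. Between 79-6 and fresh cells 42.9% of the 21 were called, against 26.0% of all genes. Against fresh cells 4 were higher and 5 lower with 79-6, led by Ptprk (-1.19), Ptprf (-1.15) and Ptpro (0.92), with 2 higher and 3 lower in every fit that left out an array.

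Binding partners and substrates of Ptpn22 and Ptpn11 were called in 18 of 25 cases from fresh to DMSO, 10 higher and 8 lower (72% called, against 19.6% of all genes), with a median of 0.14 against 0.02 over all genes. Zap70, the kinase that Ptpn22 acts on, rose by 1.42 ± 0.09 (SE, adjusted p = 9.3e-05 by limma), from 8.38 and 8.32 to 9.65 and 9.89. Cblb, a ubiquitin ligase gene, fell by 1.87 (adjusted p = 2.9e-05), Pag1, the adaptor that anchors the kinase Csk, by 0.95 (adjusted p = 3.1e-04), and Gab1, a docking protein for Ptpn11, by 0.94 (adjusted p = 0.0070). Of these calls, 5 higher and 5 lower held without any single array. The other 5 higher ones included the myeloid receptor gene Sirpa and Btla, and 3 lower ones, Fyn, Gab2 and Sos1, were lost in some fit.

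Pdcd1, which encodes PD-1, the inhibitory receptor that recruits Ptpn11, was highest in DMSO, as the chromosome 1 hairpins were. It read 7.77 and 7.82 fresh, 8.68 and 8.71 with DMSO, and 7.85 and 7.82 with 79-6. It rose by 0.90 (adjusted p = 1.8e-04) from fresh to DMSO and was lower with 79-6 than with DMSO by a log2 difference of -0.86 ± 0.07 (adjusted p = 0.0024 by limma), calls that held without any single array. Btla, another inhibitory receptor gene, rose from DMSO to 79-6 by 0.69 (adjusted p = 0.0285), a call lost without either DMSO or either 79-6 array. Those 2 were the calls of the 25 between 79-6 and DMSO (8%, against 4.36% of all genes). Against fresh cells 10 were higher and 7 lower with 79-6 (68%, against 26.0%), among them Cblb (-1.76), Zap70 (1.51), Sirpa (1.35) and Btla (1.31). The higher ones that held without any single array numbered 4, and Sirpa was lost without 79-6 replicate 2.

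Dusp5 and Dusp6, the ERK phosphatases, were both lowest in DMSO, and their fresh and 79-6 arrays overlapped. Dusp5, which acts on ERK in the nucleus, read 9.34 and 9.47 fresh, 9.11 and 9.13 with DMSO, and 9.37 and 9.52 with 79-6. Both DMSO arrays lay below the other 4. The means were 9.41 ± 0.09 (SD, n = 2), 9.12 ± 0.02 and 9.44 ± 0.11. It was 1.22-fold lower in DMSO than fresh and 1.25-fold higher with 79-6 than with DMSO.

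Dusp6, which acts on ERK in the cytoplasm, read 9.35 and 9.75 fresh, 8.89 and 9.03 with DMSO, and 9.40 and 9.68 with 79-6. Again both DMSO arrays were the lowest. The means were 9.55 ± 0.29 (SD, n = 2), 8.96 ± 0.10 and 9.54 ± 0.20. Dusp6 was 1.50-fold lower in DMSO than fresh (a log2 difference of -0.59, or -0.39 without fresh replicate 2) and 1.49-fold higher with 79-6 than with DMSO, and its fresh arrays had the widest spread between replicates of any group of the 6 genes. The DMSO minus fresh and the 79-6 minus DMSO values rest on the same 2 DMSO arrays, so their opposite signs are not independent of each other.

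Over the 6 genes, arrays did not overlap between DMSO and fresh for 6 (3 higher, 3 lower), as for 60.0% of all genes (31.9% higher, 28.1% lower). Between 79-6 and DMSO they did not overlap for 6 (4 higher, 2 lower), as for 49.0% of all genes (26.8% higher, 22.2% lower), and between 79-6 and fresh cells for 3 (1 higher, 2 lower), as for 64.5% of all genes (36.8% higher, 27.7% lower). Nothing is read from these counts, since the genes were chosen on these values.

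The promoter of each of these ERK phosphatase genes is printed because both signals were lowest in DMSO, from RefSeq windows of 300 bases around the annotated start (GRCm38.p6). The windows of Ptpn22 (which has 2), Ptpn11, Dusp5 and Dusp6 were searched on both strands. The motifs were the CArG box bound by serum response factor, the cyclic AMP response element TGACGTCA and the Ets site CCGGAAGT. The others were the AP-1 site TGANTCA, the Egr site GCGTGGGCG and the Bcl6-like site TTCCNNGAA, which STAT proteins also bind. Capitals mark matches.
Dusp5 promoter, plus strand of chr19:53528895-53529194: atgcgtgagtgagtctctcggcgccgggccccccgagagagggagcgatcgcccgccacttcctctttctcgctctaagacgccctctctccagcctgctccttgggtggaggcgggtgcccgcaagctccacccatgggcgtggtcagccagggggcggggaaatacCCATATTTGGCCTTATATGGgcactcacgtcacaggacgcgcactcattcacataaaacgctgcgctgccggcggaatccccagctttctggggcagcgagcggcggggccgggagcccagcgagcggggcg
Dusp6 promoter, plus strand of chr10:99262981-99263280: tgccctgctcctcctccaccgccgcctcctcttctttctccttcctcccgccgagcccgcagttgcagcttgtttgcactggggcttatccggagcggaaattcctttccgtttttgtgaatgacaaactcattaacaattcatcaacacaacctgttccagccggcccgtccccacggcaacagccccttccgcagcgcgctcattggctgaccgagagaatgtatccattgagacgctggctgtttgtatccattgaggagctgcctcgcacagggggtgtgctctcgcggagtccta
The Dusp5 window held 2 adjoining CArG boxes, which start 82 and 72 bases before the annotated start. Of 32851 mouse promoter windows of this length, 1.63% held a CArG box and 6 windows held 2 that do not overlap. The Dusp6 window held none of the 6 motifs, which says only that these letters are not in that window. The Ptpn11 window held the cyclic AMP response element, 67 bases before the start (1.79% of windows). In 1 of the 2 Ptpn22 windows the Bcl6-like site lay 232 bases before the start, read on the minus strand (4.81% of windows). The other motifs occur in 3.89% (Ets), 7.81% (AP-1) and 0.612% (Egr) of windows. A match is a description of the letters and not evidence that a factor binds.

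Of the other 8 MAP kinase phosphatase genes, limma called 1 higher and 2 lower from fresh to DMSO (37.5%, against 19.6% of all genes). Dusp10, a phosphatase of p38 and JNK, read 9.75 and 9.68 fresh, 10.67 and 10.72 with DMSO, and 10.36 and 10.46 with 79-6. It rose by 0.98 ± 0.08 (SE, adjusted p = 1.9e-04) and stayed higher with 79-6 than fresh by 0.69 (adjusted p = 7.2e-04 by limma), calls that held without any single array. Dusp1, an immediate-early gene, read 11.51 and 11.68 fresh, 10.67 and 10.76 with DMSO, and 10.73 and 11.14 with 79-6. It fell by 0.88 ± 0.14 (adjusted p = 0.0043) from fresh to DMSO and was lower with 79-6 than fresh by a log2 difference of -0.66 (adjusted p = 0.0113), the latter lost without fresh replicate 2.

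Dusp2, a nuclear phosphatase of activated lymphocytes, read 8.53 and 8.78 fresh, 8.16 and 8.18 with DMSO, and 8.06 and 8.02 with 79-6. Its fall of 0.48 (adjusted p = 0.0116) to DMSO was lost without fresh replicate 2 or either DMSO array, and its difference of 79-6 from fresh (-0.61, adjusted p = 0.0033) held in every such fit. Limma called 0 of these 8 between 79-6 and DMSO, against 4.36% of all genes, with 1 at an unadjusted p under 0.05. The values were -0.29 for Dusp10 (adjusted p = 0.0816), 0.22 for Dusp1, -0.13 for Dusp2, 0.10 for Dusp7, -0.10 for Dusp16, -0.10 for Dusp9, 0.06 for Dusp8 and -0.00 for Dusp4 (adjusted p = 0.427 to 0.995). From fresh to DMSO Dusp4 (0.02), Dusp7 (0.25), Dusp8 (0.02), Dusp9 (-0.03) and Dusp16 (-0.00) were not called either (adjusted p = 0.194 to 0.982). With 79-6 against fresh their differences were 0.02, 0.35, 0.08, -0.13 and -0.10 in the same order (adjusted p = 0.869, 0.0635, 0.588, 0.400 and 0.327).

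**Figure D4:**
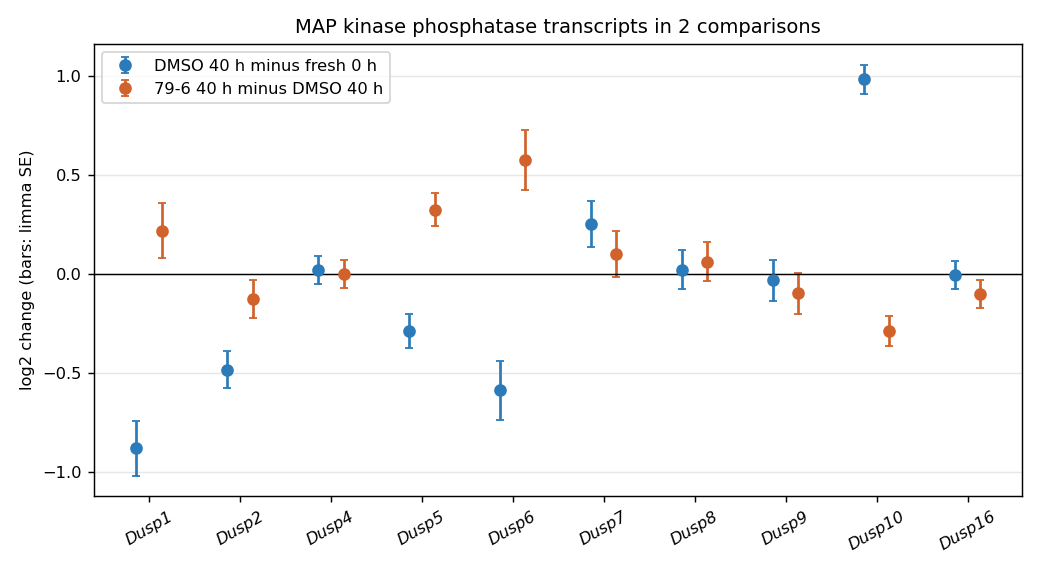
Log2 change (points) with limma's standard error (bars) of the 10 MAP kinase phosphatase genes, from fresh to DMSO and from DMSO to 79-6. Dusp6 stands at -0.59 and 0.57 and Dusp10 at 0.98 and -0.29; the 2 comparisons share the DMSO arrays.

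Dual-specificity phosphatases without a MAP kinase binding domain had 1 of 18 genes higher and 3 lower from fresh to DMSO. The called share was 22.2%, against 19.6% of all genes. Dusp11 rose by 0.58 (adjusted p = 0.0021), held without any single array, and Dusp18 (-0.48), Dusp28 (-0.47) and Dusp12 (-0.45) fell (adjusted p = 0.0072 to 0.0114 by limma), with no fall held throughout. Dusp18 was lost without DMSO replicate 2, Dusp28 without that array or fresh replicate 1, and Dusp12 without fresh replicate 1 or DMSO replicate 1. From DMSO to 79-6 Dusp22 (0.47, adjusted p = 0.0489), which acts on Lck, and the cofilin phosphatase gene Ssh2 (0.40, adjusted p = 0.0332) were called higher by limma. These 2 are 11.1% of the 18, against 4.36% of all genes. Ssh2 was lost in each fit without 1 array, and Dusp22 in each but that without 79-6 replicate 1. Against fresh cells 5 were higher and 3 lower with 79-6 (44.4%, against 26.0%), among them Dusp3 (0.69), Dusp11 (0.67), Ssh2 (0.60) and Dusp22 (0.58). Dusp3 was lost without fresh replicate 1 or either 79-6 array.

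Components of the Ras and ERK cascade on which Dusp5 and Dusp6 act were called in 13 of 18 cases from fresh to DMSO, 7 higher and 6 lower (72.2% called, against 19.6% of all genes), with a median of 0.02. Rasgrp1, the Ras activator downstream of the T cell receptor, rose by 1.58 ± 0.07 (SE, adjusted p = 2.3e-05 by limma), from 10.92 and 10.93 to 12.55 and 12.46. The Ras inhibitors Rasa2 (0.85, adjusted p = 6.9e-04) and Rasa3 (0.79, adjusted p = 5.2e-04) rose too. Of the 13, 4 higher and 3 lower held without any single array.

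Rras2, a Ras-related GTPase gene of lymphocytes, was low in DMSO only. It read 11.06 and 11.07 fresh, 10.29 and 10.31 with DMSO, and 11.17 and 11.11 with 79-6. It fell by 0.76 (adjusted p = 3.8e-04) to DMSO and was higher with 79-6 than with DMSO by 0.84 ± 0.07 (adjusted p = 0.0026 by limma). Rasa3 rose again from DMSO to 79-6, by 0.83 (adjusted p = 0.0036). These were the 2 calls of the 18 between 79-6 and DMSO, and both held without any single array. Those calls are 11.1% of the 18, against 4.36% of all genes. Against fresh cells 5 were higher and 3 lower with 79-6 (44.4%, against 26.0%). Rasa3 (1.62), Rasgrp1 (1.40), the Ras inhibitor Nf1 (-1.04) and Rasa2 (0.90) led them.

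Genes that ERK is known to induce, and feedback inhibitors of its pathway, had 6 of 23 higher and 3 lower from fresh to DMSO. Called genes made up 39.1% of the list, against 19.6% of all genes. Id3, an E protein inhibitor induced by pre-T cell receptor signalling, rose by 2.46 ± 0.08 (SE, adjusted p = 7.0e-06 by limma), the nuclear receptor gene Nr4a1 by 1.19 (adjusted p = 5.0e-04), the Ets factor gene Etv5 by 0.99 (adjusted p = 0.0015) and Phlda1 by 0.97 (adjusted p = 0.0032). The feedback inhibitors Spry1 and Spry2 and the growth regulator Myc were the 3 that fell, while Spred2, another feedback inhibitor, rose by 0.36 (adjusted p = 0.0138 by limma), a call lost without either fresh or either DMSO array. Called genes of this list thus went in both directions from fresh to DMSO. Both microRNA hairpins were higher in DMSO than fresh and Dusp5 and Dusp6 lower, which is a description without a test. Phlda1 read 9.07 and 8.69 fresh, 9.73 and 9.97 with DMSO, and 9.19 and 9.04 with 79-6. From DMSO to 79-6 it fell by 0.74 (adjusted p = 0.0378) and Myc by 0.51 (adjusted p = 0.0215 by limma), the 2 calls of the list there, and both calls were lost without either DMSO array or without 79-6 replicate 2, that of Phlda1 also without 79-6 replicate 1. Phlda1 and Myc are 8.7% of the list, against 4.36% of all genes called. Against fresh cells 4 were higher and 2 lower with 79-6 (26.1%, against 26.0%), led by Id3 (2.43), Myc (-1.14), Nr4a1 (1.08) and Fos (0.99). Fos was lost without fresh replicate 1 or 79-6 replicate 2.

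Other genes reported as miR-181 targets moved in both directions. From fresh to DMSO 3 of 16 were called higher and 4 lower (43.8%, against 19.6% of all genes), with a median of -0.02. S1pr1, the receptor for thymic exit, rose by 2.27 ± 0.13 (SE, adjusted p = 4.9e-05 by limma), and Cbx7, a Polycomb gene, by 0.69 (adjusted p = 0.0045). Nrarp, a feedback inhibitor of Notch, fell by 1.32 (adjusted p = 1.9e-04), and the survival gene Bcl2 by 0.70 (adjusted p = 0.0032). These 4 calls held without any single array.

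Bcl2, like Dusp5 and Dusp6, was lowest in DMSO. It read 10.65 and 10.70 fresh, 10.12 and 9.83 with DMSO, and 10.62 and 10.69 with 79-6. Its rise from DMSO to 79-6 by 0.68 ± 0.10 (adjusted p = 0.0186 by limma) was lost without DMSO replicate 2 or 79-6 replicate 2. S1pr1 rose further with 79-6, by 1.22 (adjusted p = 0.0057), a call lost without either DMSO array. Plag1 was called too, lower by a log2 difference of -0.53 (adjusted p = 0.0420), and held only without 79-6 replicate 1. The median of the 16 was 0.15 from DMSO to 79-6, against 0.02 over all genes, with 2 called higher and 1 lower (18.8%, against 4.36% of all genes). Against fresh cells 5 were higher and 3 lower (50%, against 26.0%), led by S1pr1 (3.50), Nrarp (-1.24), Cbx7 (0.64) and Plag1 (-0.56). Plag1 was lost without fresh replicate 1.

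**Figure D5:**
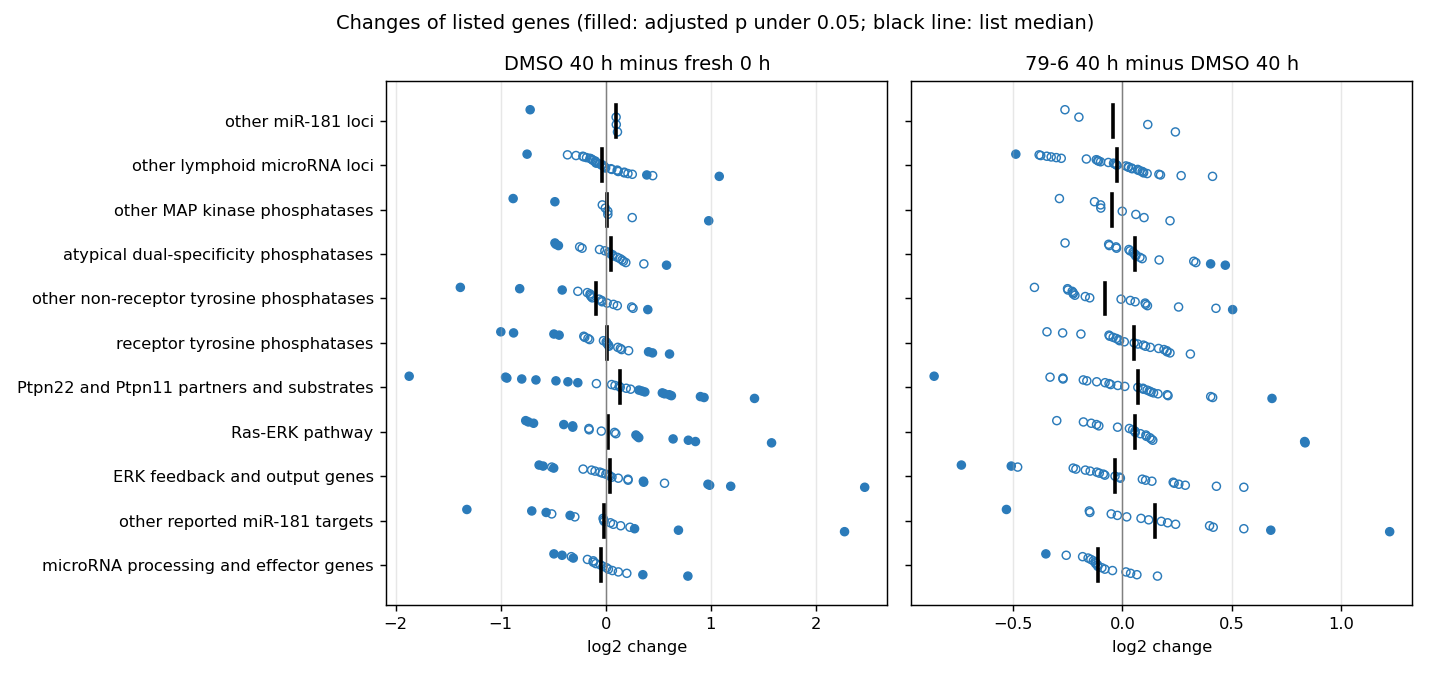
Log2 change (horizontal axis) of each measured gene (points) in 11 lists, from fresh to DMSO (left) and from DMSO to 79-6 (right); filled points have an adjusted p under 0.05 and black lines are list medians. In the right panel the list of other reported miR-181 targets has the median furthest above 0, 0.15, and S1pr1 the largest rise, 1.22.

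Markers of other cell types differed between the groups, and in bulk RNA fewer cells of a type and less RNA per cell cannot be told apart. Markers of natural killer (NK) and innate lymphoid cells, of B cells and of the T lineage had their lowest sums in DMSO. Dusp5 and Dusp6 were lowest there too. Within these lists the members moved in both directions. Their median changes from fresh to DMSO were -0.44, 0.15 and 0.43 in that order, against 0.02 over all genes. The B cell markers called from fresh to DMSO, Blk and Ebf1, were low in both cultured groups. For thymic epithelial, mesenchymal and endothelial, and erythroid markers the DMSO and 79-6 sums overlapped. T-lineage sums were 52836 to 54958 fresh, 50006 to 51344 with DMSO and 52090 to 52563 with 79-6. Of 9 NK and innate lymphoid markers 6 fell and 1 rose from fresh to DMSO (77.8% called, against 19.6% of all genes). From DMSO to 79-6 4 rose and 1 fell (55.6%, against 4.36%). The summed intensity of these 9 was 9318 to 10806 fresh, 7983 to 8028 with DMSO, and 9449 to 9718 with 79-6. Nkg7 fell by 1.28 (adjusted p = 1.5e-04) and rose by 1.12 (adjusted p = 0.0027, both by limma), and held without any single array. The other rises with 79-6, of Gzmb, Klrd1 and Tbx21, and the fall of Gzma lost their calls without DMSO replicate 2 or 79-6 replicate 2, and all but that of Gzmb without DMSO replicate 1. Without 79-6 replicate 1 the calls of Gzmb and Tbx21 were lost. The gene nearest to Dusp6 in pattern over the same 6 arrays was Id2, followed by Sulf2, Cmklr1 and Axl. None of these is on the marker lists used here. The part of any of these cells in the Dusp5 and Dusp6 values was not tested.

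Of 9 markers of macrophages and dendritic cells, 5 rose from fresh to DMSO and 0 fell (55.6%, against 19.6% of all genes). At an unadjusted p under 0.05 by limma the number was 6. Their sum went from 2142 to 3591 fresh to 12579 to 12777 with DMSO and 14988 to 17235 with 79-6. From DMSO to 79-6 limma called 1 of the 9, Itgax (1.14, adjusted p = 0.0073), or 11.1% against 4.36% of all genes. That call was lost without either DMSO array or 79-6 replicate 2. The sums stood in the order of Ptpn22, a gene of lymphoid and myeloid cells, and of Ptpn6 and Sirpa. The genes nearest to Ptpn22 in pattern, Meis3, Pop5, Cab39l and Cyth1, are not on this marker list. Granulocyte and mast cell markers summed to 4221 to 4746 fresh, 4885 to 4899 with DMSO and 6374 to 7951 with 79-6, but they moved in both directions. The neutrophil gene Mmp8 rose by 4.03 from fresh to DMSO, while Cpa3 (-1.61) and Kit (-1.65), listed here as mast cell markers, fell. Whether the Cpa3 and Kit signals came from mast cells or from thymocytes was not tested. From DMSO to 79-6 Mmp8 (1.30) and Kit (1.06) rose, and Cpa3 (-1.43) and Mpo (-0.86) fell. The calls of Mmp8 and Mpo there were lost without either DMSO array or 79-6 replicate 2, and that of Mpo also without 79-6 replicate 1. Thymic epithelial markers fell in 10 of 10 cases to DMSO (100%, against 19.6% of all genes called). Their sum fell from 11130 to 11170 down to 3332 to 4857, and it was 4143 to 4210 with 79-6. B cell markers summed to 2621 to 2691, 2169 to 2261 and 2852 to 3136, mesenchymal and endothelial markers to 4813 to 5126, 3603 to 4143 and 4008 to 4031, and erythroid markers to 579 to 978, 344 to 359 and 335 to 413, in the order fresh, DMSO, 79-6. The part of any of these cells in the values of the 6 genes was not tested.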

How the data were processed

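The 6 arrays were 1-colour Affymetrix whole-transcript arrays hybridised with biotin-labelled RNA extracted with a PicoPure kit, per the labels' protocols. The authors deposited RMA intensity values made with the R package oligo, per the submitters' processing notes, with versions and genome build not given in the sources used here. Since those intensities run from 8.75 to 25316, log2 was taken with no pseudocount. Of 34760 probe sets, 21640 carry a single gene symbol and 1321 several. The brightest single-symbol probe set of each of 19937 genes was used.

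All 6 arrays were fitted together (limma 3.58.1, R 4.3.3, lmFit and eBayes, residual df 3, prior df 4.24) with two-sided p-values, adjusted by Benjamini-Hochberg over all 19937 genes at a threshold of 0.05. The fit was also run on simulated data with independent normal noise and large shifts, which checks the code and not the calls made here. Errors are SE for changes and SD for means. The 6 genes and the gene lists were chosen with earlier results of these data known. Named genes were all of the miR-181 and MAP kinase phosphatase lists, up to 4 called members with the largest change from each other list, and those with the smallest p where none was called; genes named beyond these were chosen after their values were seen. Alternatives were a replicate block, leaving out each array, trend and robust settings, a minimum mean log2 of 6, arrays shifted to 1 median, a pseudocount of 16 and averaging probe sets. Sequences come from RefSeq tables (GRCm38.p6), which matched all 6 genes; the wider likeness rule, neighbouring genes and promoter motifs were added after values were seen.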

Additional observations from a re-analysis of the deposited data

How the results depend on the processing

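The differences of the 6 genes kept their sign under each of 9 alternatives per comparison, except that Dusp5 and Dusp6, whose fresh and 79-6 arrays overlap, turned sign between 79-6 and fresh in 2 and 3 of them (-0.04 to 0.11 and -0.21 to 0.19). Leaving out 1 array moved some by over 1.5 times: from fresh to DMSO Mir181b-1 ranged from 0.22 to 0.47 and Dusp6 from -0.79 to -0.39, and Ptpn11 ranged from 0.03 to 0.10 from DMSO to 79-6 and from -0.09 to -0.02 against fresh. With 16 added before log2, Mir181a-1 stood at 0.41, -0.79 and -0.38 in the 3 comparisons. With 1 array left out, genes called numbered 2286 to 4070 from fresh to DMSO (3902 with all arrays), 93 to 661 from DMSO to 79-6 (869 with all arrays; 113 without DMSO replicate 1, 93 without DMSO replicate 2 and 127 without 79-6 replicate 2) and 3081 to 5068 between 79-6 and fresh (5174 with all arrays), each time with 1 array left in a group that is assumed to vary like the others. With an intensity trend and robust settings 1723 genes were called from DMSO to 79-6. With arrays shifted to 1 median, 2155 were higher and 1822 lower from fresh to DMSO, against 1773 and 2129.

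Among the other MAP kinase phosphatases, 1 to 2 were called lower from fresh to DMSO with 1 array left out. From DMSO to 79-6 1 was called lower with trend and robust settings or with 16 added. Between 79-6 and fresh 2 were higher with trend and robust settings, with a minimum mean of 6 or with 1 median, and with 1 array left out 1 to 2 were higher and 1 to 2 lower. Of the other miR-181 loci 0 to 1 were called higher there with 1 array left out. Values that turned sign were all of genes that were not called. With arrays shifted to 1 median Dusp9 stood at 0.0079 and Dusp16 at 0.0367 from fresh to DMSO. With 1 array left out the ranges from fresh to DMSO were -0.0342 to 0.232 for Mir181a-2, -0.0403 to 0.0805 for Dusp8, -0.0988 to 0.0338 for Dusp9 and -0.039 to 0.0317 for Dusp16. From DMSO to 79-6 they were -0.0406 to 0.0384 for Dusp4, -0.0591 to 0.257 for Dusp7, -0.0506 to 0.173 for Dusp8 and -0.236 to 0.0377 for Dusp9. Between 79-6 and fresh they were -0.0203 to 0.0588 for Dusp4, -0.0305 to 0.193 for Dusp8 and -0.269 to 0.0052 for Dusp9.

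Same-numbered arrays deviated from their group means with correlations of 0.0036 (fresh and DMSO), 0.0948 (fresh and 79-6) and -0.0740 (DMSO and 79-6), which does not show that the numbers pair the arrays. A replicate block called 3667, 774 and 4852 genes in the 3 comparisons, a shift of under 1.5 times. The number of arrays limits the precision, and signal over background has no measure here.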

Other observations

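Genes next to the miR-181 clusters were taken from RefSeq order after the values were seen. Near the chromosome 1 hairpins, on the side of higher coordinates the nearest measured gene is Ptprc. It read 11.85 and 11.90 fresh, 12.38 and 12.26 with DMSO, and 12.38 and 12.36 with 79-6, so it was high in both cultured groups. On the other side Zfp281, a zinc finger gene, read 10.74 and 10.75 fresh, 10.80 and 10.91 with DMSO, and 10.87 and 10.77 with 79-6, and was not called in any comparison. Nr6a1, a nuclear receptor gene whose interval overlaps the chromosome 2 cluster, read 6.94 and 6.99 fresh, 6.94 and 6.96 with DMSO, and 6.83 and 6.89 with 79-6. Mir181b-2 fell from fresh to DMSO. Strands were not compared, so Nr6a1 is not taken as the host transcript of these hairpins.

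With the likeness rule widened after values were seen, from a span of group means over 1 to one over 0.5, nearest genes could be named for Mir181b-1, Ptpn22 and Dusp6 as well. Mir181a-1, at 0.23 from Mir181b-1, was left out as a candidate by its mean under 6. The nearest candidates to Mir181b-1 were Cenpk, a kinetochore gene, at a distance of 0.27, then Alms1, Fam221a and Dgke, the last 3 of which are also near Mir181a-1. The nearest to Ptpn22 were Meis3 (0.08), Pop5 (0.08), Cab39l (0.09) and Cyth1 (0.10). Those nearest to Dusp6 were Id2 (0.20), Sulf2 (0.22), the chemerin receptor gene Cmklr1 (0.23) and the receptor kinase gene Axl (0.23). Id2 read 11.85 and 12.06 fresh, 11.37 and 11.37 with DMSO, and 11.93 and 12.11 with 79-6.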
